A study of Homo sapiens with 6 samples.

Results

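The genes described here are 10 direct or frequently used transcriptional readouts of Notch signalling: the repressors HES1, HES2, HES4, HES5, HEY1 and HEYL, and NRARP, DTX4, BCL6 and ID3. They were chosen by name, and their levels were the summed TPM (a transcript abundance scaled for length and to a fixed total per library) of every deposited transcript that carried the gene's name. Of the 10 genes, 9 had transcripts in all 6 libraries, out of 27988 genes named in the series, and HEYL had none in any library. HaCaT cells, an immortalised human keratinocyte line, were grown in high glucose medium with 10% serum and transfected by lipid reagent at partial density. Cells that received the reagent alone are mentioned in the labels and were not analysed here. The 2 groups compared were cells with a small interfering RNA against PSENEN (100 pmol, 3 libraries) and cells with a mismatch siRNA (3 libraries). The labels give RNA extraction at 48 and 72 h and do not say which time was sequenced, or whether the libraries came from separate cultures, so the p-values measure only the spread between libraries.

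Notch receptors are cut by γ-secretase, a membrane protease with PSENEN as its smallest subunit, and the released intracellular domain joins the DNA-binding protein RBPJ and a Mastermind co-activator to switch on target genes. HES and HEY genes are the classical targets and encode basic helix-loop-helix repressors. The HES proteins recruit Groucho corepressors. In the epidermis Notch signalling is known for moving keratinocytes from the basal layer into differentiation. RBPJ recognises the core sequence TGGGAA, and pairs of RBPJ sites near the start of HES genes are a well-known feature of Notch control.

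The sequence before the start of HES1, HES4 and HES5 is shown because these 3 genes share that core at a similar distance from the RefSeq start. In HES4 the match lies across the first base of the GENCODE annotation of the gene, so there the distance depends on the start used. Mean levels of HES1, HES4 and HES5, which hold the core, were at 80.7%, 71.1% and 22.5% of control with the PSENEN siRNA. Of genes with no match, HES2, NRARP and ID3 were at 70.8%, 78.0% and 90.7%, and DTX4 and BCL6 at 135% and 105%. The HES2 value is from named transcripts, which alone could not measure this gene, as described below. With assembled transcripts HES2 was at 52.7%. HEY1, at 102%, had no RefSeq sequence at hand to search and falls in neither set. A link between the core and these levels was not tested. The bases are from RefSeq on GRCh38.p14, printed 5′ to 3′ on the gene's strand, with each match to TGGGAA, or to its reverse complement TTCCCA, in capitals. The HES1 stretch (chr3:194135898-194136144, plus strand) and the HES5 stretch (chr1:2530264-2530513, minus strand) end before the gene's first annotated transcript.
HES1: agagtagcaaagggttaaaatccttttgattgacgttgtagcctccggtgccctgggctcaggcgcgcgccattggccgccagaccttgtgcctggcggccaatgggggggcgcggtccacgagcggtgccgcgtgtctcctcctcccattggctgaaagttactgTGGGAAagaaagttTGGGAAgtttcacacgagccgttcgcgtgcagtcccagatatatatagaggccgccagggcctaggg
HES5: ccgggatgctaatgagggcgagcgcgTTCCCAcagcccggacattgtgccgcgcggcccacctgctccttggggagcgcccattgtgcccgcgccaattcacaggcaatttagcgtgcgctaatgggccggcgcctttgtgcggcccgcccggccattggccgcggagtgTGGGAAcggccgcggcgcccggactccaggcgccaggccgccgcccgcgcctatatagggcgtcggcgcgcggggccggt

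Shorter stretches of 30 bases, from chr3:194136056-194136085, chr1:1000152-1000181 and chr1:2530322-2530351, line up the match nearest the start of HES4 and HES5 with the farther match in HES1. Only exact matches to the core are marked, and whether any sites act as a pair was not tested.
HES1 site: agttactgTGGGAAagaaagttTGGGAAgt
HES4 site: ggcgagtgTGGGAAagaatgcggagccggg
HES5 site: gcggagtgTGGGAAcggccgcggcgcccgg

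In HES1 the matches lay 84 to 79 and 70 to 65 bases before the RefSeq start, in HES4 one lay 76 to 71 bases before it, and in HES5 the nearer one lay 80 to 75 bases before it. The farther HES5 match lay on the opposite strand, 224 to 219 bases before the start. RefSeq windows of 250 bases were at hand for 9 of the 10 genes, all but HEY1. On either strand, TGGGAA was found in the windows of HES1, HES4, HES5 and HEYL, and in 20.8% of the 35116 windows of all genes. The longer form GTGGGAA, which contains TGGGAA, was found in the same 4 genes and in 5.43% of all windows. No match was found in the windows of HES2, NRARP, DTX4, BCL6 and ID3, which says nothing of sites outside them. A match is a stretch of letters and not a measured binding site, and HEYL, which held both forms, had no transcript listed in any library.

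The targeted gene was measured first. PSENEN stood at 1.75, 2.08 and 1.50 TPM in PSENEN siRNA libraries 1 to 3 and at 6.58, 8.85 and 6.55 TPM in mismatch siRNA libraries 1 to 3. Every library with the PSENEN siRNA lay below every control library, and 24.2% of the control mean was left. The log2 difference of TPM + 1 was -1.58 with a standard error of 0.18 (limma adjusted p = 0.0471 over 15647 genes). The call was lost whenever 1 of the 6 libraries was left out, with adjusted p between 0.110 and 0.155, while the difference stayed between -1.45 and -1.66.

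Sequencing depth, estimated from coverage, was 9.16 to 11.9 gigabases in PSENEN siRNA libraries and 11.5 to 15.6 gigabases in mismatch siRNA libraries, and its part in the results was not tested. Among 15647 genes that reached 1 TPM in 3 or more libraries, 64 passed an adjusted p of 0.05 (called genes), 20 higher and 44 lower, a share of 0.409%. With median-of-ratios scaling the split was 21 higher and 28 lower. All 10 keratinocyte markers were present and 8 of the 10 had a negative difference (median -0.27) and 5 were wholly lower (13.7% of all genes were). Their summed levels were 3435 to 4258 TPM in PSENEN siRNA libraries and 3584 to 7969 TPM in mismatch siRNA libraries. The overlap of the sums came with KRT14, a basal keratin gene whose named transcripts were at 675, 3913 and 146 TPM in controls; with assembled transcripts it was at 1559, 1419 and 1442 against 2610, 3913 and 4166 TPM (-1.25, limma adjusted p = 0.0570). Fibroblast, melanocyte and endothelial marker lists each summed to less than 2 TPM in every library, and the immune list, through CD14 and HLA-DRA alone, to 12.5 to 16.8 against 15.1 to 24.0 TPM. Among the defining markers of these and of immune cells, COL1A2, LUM, PDGFRB, MLANA, TYR, DCT, SOX10, PECAM1, TEK, KDR, PTPRC, CD3E, CD79A and LYZ had no transcripts. The part of the lower keratinocyte markers in the results below was not tested, and in bulk RNA fewer cells of a kind and less RNA per cell cannot be told apart.

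None of the 9 measured Notch target genes was called, against 0.409% of all genes tested. In limma, 2 of the 9, HES1 and HES5, had an unadjusted p under 0.05, as did 2031 of the 15647 genes tested. The same 2 genes were the only ones of the 9 whose libraries did not overlap between groups; both were lower with the PSENEN siRNA, as were 13.7% of all tested genes, and none of the 9 lay wholly higher, against 8.21% of all genes. Of the 9 genes, 6 had a negative difference, with a median of -0.27 against -0.04 over all genes, of which 54.6% were negative. With assembled transcripts that share an intron added, 4 of the 9 were wholly lower, against 14.5% of 16428 genes, and none wholly higher. These added transcripts took 5.37% to 5.74% of TPM in PSENEN siRNA libraries and 6.07% to 6.8% in mismatch siRNA libraries. Adding them thus raised controls more over all genes, and the part of this in single genes was not tested. By coverage of annotated exons, a measure chosen after the data were seen, 5 of the 9 were wholly lower, against 14.1% of 17777 genes, and DTX4 was wholly higher, against 8.30%. The difference farthest from 0 was that of HES5.

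**Figure D1:**
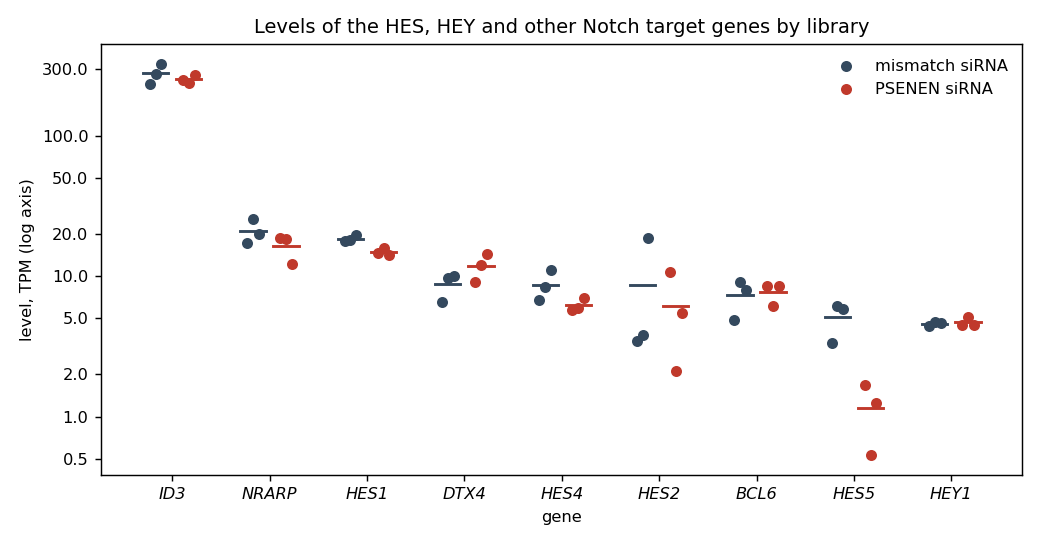
Level of each of the 9 detected genes in TPM (vertical log axis) by gene (horizontal axis), with 1 point per library, mismatch siRNA in dark blue and PSENEN siRNA in red, and a short line at each group mean. HES5 and HES1 are the genes whose groups do not overlap: HES5 libraries lay at 0.530 to 1.67 TPM against 3.33 to 6.13 TPM.

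HES1 (ENSG00000114315, GRCh38 chromosome 3, 194136145 to 194138732, plus strand) encodes the repressor most widely used as a measure of Notch activity. Its levels were 14.7, 16.0 and 14.1 TPM for PSENEN siRNA replicates 1 to 3, against 17.8, 18.0 and 19.8 TPM for mismatch siRNA replicates 1 to 3. The groups did not overlap, and the values within each group lay close together. The means were 14.9 ± 0.969 and 18.5 ± 1.07 TPM (SD, n = 3), so that 80.7% of the control level was measured. The log2 difference was -0.29 (95% interval -0.57 to -0.02, limma adjusted p = 0.360). Most of the level came from the coding transcript ENST00000232424, at 14.6, 15.3 and 13.1 TPM against 16.5, 17.8 and 19.5 TPM. A transcript with a retained intron, ENST00000476918, stayed at or under 1.33 TPM in every library. StringTie also assembled transcripts without a reference name that share an intron with HES1, at 2.0 to 3.26 TPM with the PSENEN siRNA and 2.14 to 4.11 TPM in controls. With these added, HES1 was at 16.7, 18.9 and 17.4 TPM against 20.7, 22.1 and 21.9 TPM, and the difference was -0.28 (adjusted p = 0.311).

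HES5 (ENSG00000197921, chromosome 1, 2528745 to 2530245, minus strand) encodes a second classical repressor, best known from neural progenitors. It measured 1.67, 0.530 and 1.24 TPM after the PSENEN siRNA and 3.33, 6.13 and 5.80 TPM after the mismatch siRNA. The highest value with the PSENEN siRNA was thus below the lowest control value. The means were 1.15 ± 0.577 and 5.09 ± 1.53 TPM, and 22.5% of the control level was measured. The log2 difference of TPM + 1 was -1.51 with a standard error of 0.30 (95% interval -2.24 to -0.77, limma adjusted p = 0.123), so the difference exceeded the spread between libraries but did not pass over all genes. All of it came from the single coding transcript ENST00000378453 of 3 exons, no assembled transcript shared its introns, and no 31-base word of HES5 occurs in another annotated gene. Coverage of this transcript was 2.18 reads per base in the lowest library and 29.7 in the highest, so the low values rest on few reads. HES5 overlaps the annotated antisense gene AL139246.5, and the strandedness of the libraries is not given in the sources used here.

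HES4 (ENSG00000188290, chromosome 1, 998962 to 1000172, minus strand) encodes a repressor closely related to HES1 that mice lack. It was at 5.72, 5.89 and 6.96 TPM with the PSENEN siRNA and at 6.80, 8.32 and 11.0 TPM in controls. PSENEN siRNA library 3 lay just above mismatch siRNA library 1, so the groups overlapped by that pair. The log2 difference was -0.41 (95% interval -0.89 to 0.06, limma adjusted p = 0.440). The coding transcript ENST00000304952 was at 2.07, 2.04 and 2.64 TPM against 2.90, 2.96 and 3.76 TPM, and the retained-intron transcript ENST00000481869 at 2.70, 2.07 and 3.04 TPM against 3.65, 4.25 and 4.90 TPM. Neither of these transcripts overlapped between groups. The overlap of the summed level came with another transcript, ENST00000428771, which was at 0.741, 1.50 and 1.29 TPM against 0.0153, 0.00109 and 2.35 TPM. With a 3-exon transcript that was assembled in mismatch siRNA library 1 alone, at 0.499 TPM, the HES4 groups no longer overlapped (difference -0.44, adjusted p = 0.328).

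HES2 (ENSG00000069812, chromosome 1, 6412418 to 6424670, minus strand), a less studied repressor of the family, could not be measured from named transcripts alone. Its named transcripts summed to 10.7, 2.12 and 5.50 TPM with the PSENEN siRNA and to 3.46, 3.81 and 18.6 TPM in controls. Both groups were spread widely and overlapped, with a log2 difference of -0.27 (95% interval -2.04 to 1.49, limma adjusted p = 0.901). In 3 libraries most of the HES2 signal lay instead on an assembled transcript of 5 exons, at 7.08 TPM in PSENEN siRNA library 2 and at 6.59 and 15.3 TPM in mismatch siRNA libraries 1 and 2. It carried the same 3 downstream exons as the coding transcript ENST00000377834 but began at the annotated upstream exon of ENST00000377837 (6424478 to 6424670), not at the first exon of ENST00000377834 (6419776 to 6419919). The RefSeq window searched above lies before that second start. With assembled transcripts counted, HES2 was at 10.7, 9.19 and 6.64 TPM against 12.6, 19.2 and 18.6 TPM. The groups then did not overlap, the spread within them shrank, and 52.7% of the control mean was measured (difference -0.85, 95% interval -1.39 to -0.31, adjusted p = 0.174).

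The 2 starts of HES2 were not split by treatment. Transcripts with the upstream first exon made up 80.4% of the HES2 level in PSENEN siRNA library 2, and 57.7% and 83.2% in mismatch siRNA libraries 1 and 2, and they were listed at 0 in the other 3 libraries. Each library was assembled by itself, and whether the start differed between cultures or between assemblies was not tested. Of the 31-base words of HES2 transcripts, 8.84% also occur in another annotated gene.

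**Figure D2:**
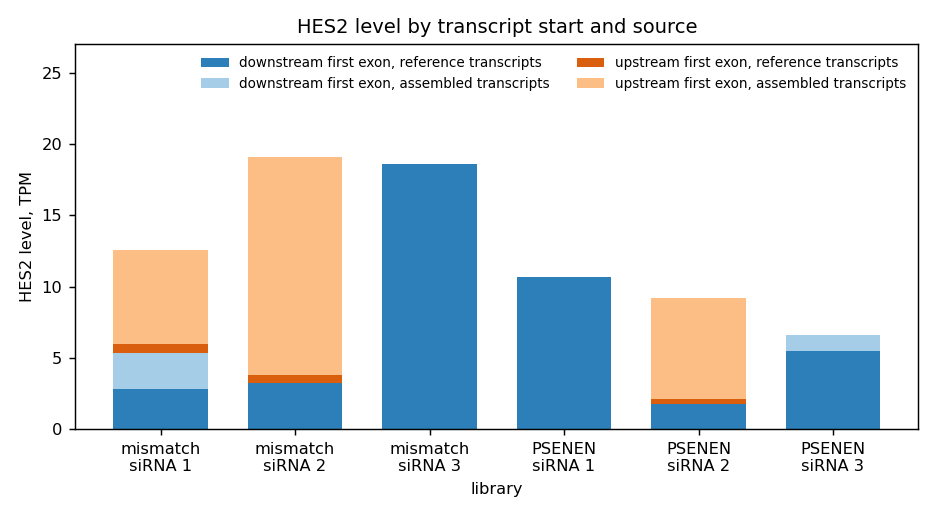
HES2 level in TPM (vertical axis) in each library (horizontal axis) as stacked bars, split by first exon (downstream in blue, upstream in orange) and by whether the transcript was a named reference transcript (dark) or assembled (light). Total bar heights are 12.6, 19.2 and 18.6 TPM in mismatch siRNA libraries and 10.7, 9.19 and 6.64 TPM in PSENEN siRNA libraries, while the dark bars alone show no such order.

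HEY1 (ENSG00000164683, chromosome 8), which encodes the best-known HEY repressor, stayed between 4.45 and 5.12 TPM in all 6 libraries. It was at 4.46, 5.12 and 4.47 TPM with the PSENEN siRNA and at 4.45, 4.68 and 4.64 TPM in controls. The groups overlapped almost fully. The log2 difference was 0.02 with a 95% interval of -0.31 to 0.35 (limma adjusted p = 0.960), and the interval sets the size of change that these libraries leave possible. Its main coding transcript, ENST00000354724, was at 2.92 to 4.03 TPM with the PSENEN siRNA and 3.02 to 3.81 TPM in controls. HEYL, a further HEY gene, had no named transcript and no assembled transcript over its annotated position in any library. Of the other family members, HES6, HES7 and HEY2 stayed at or below 0.258 TPM in every library by their named transcripts, and HES3 and HELT had no transcripts. With assembled transcripts, HES7 reached 1.99 TPM and HEY2 0.791 TPM in PSENEN siRNA library 1. HES6 reached 0.762 TPM in mismatch siRNA library 1. The more distant relatives BHLHE40 and BHLHE41 were tested: BHLHE40, a stress- and clock-linked repressor and the most abundant of this list, was at 16.1, 18.0 and 16.3 TPM against 14.8, 17.3 and 26.3 TPM (difference -0.17, adjusted p = 0.774), and its groups overlapped.

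NRARP and DTX4 encode regulators that act back on the pathway: NRARP binds the Notch intracellular domain and limits its activity, and DTX4 is a Deltex-type ubiquitin ligase. NRARP (ENSG00000198435) was at 18.6, 18.4 and 12.2 TPM with the PSENEN siRNA and at 17.2, 25.7 and 20.1 TPM in controls. The groups overlapped through mismatch siRNA library 1, and the difference was -0.35 (95% interval -0.88 to 0.19, limma adjusted p = 0.556). NRARP is a gene of 1 exon, so no assembled transcript can share an intron with it. Spliced assembled transcripts on its strand that run past its annotated end were listed at 3.61, 2.90 and 3.46 TPM in mismatch siRNA libraries 1 to 3, and none was assembled in a PSENEN siRNA library. When all coverage on the strand was counted over the annotated exon, NRARP stood at 28.8, 29.9 and 19.3 against 32.0, 44.9 and 35.3 (coverage scaled to a fixed total per library). On that measure the groups did not overlap (difference -0.52, 95% interval -1.01 to -0.03, adjusted p = 0.318).

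DTX4 (ENSG00000110042) went the other way. It was at 9.13, 12.0 and 14.4 TPM with the PSENEN siRNA and at 6.57, 9.69 and 10.1 TPM in controls, with overlap between PSENEN siRNA library 1 and the upper controls. The difference was 0.39 (95% interval -0.16 to 0.95, limma adjusted p = 0.518). Assembled transcripts of DTX4 took 5.34 TPM in PSENEN siRNA library 1 and 2.17 to 2.38 TPM in the mismatch siRNA libraries, and none in the remaining 2. Over the annotated exons, its coverage was 20.8, 17.9 and 20.9 against 12.7, 17.4 and 17.5 on the same scale. On that measure every library with the PSENEN siRNA lay above every control, if narrowly for library 2 (difference 0.32, adjusted p = 0.403).

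BCL6 and ID3 are targets that Notch shares with other pathways. BCL6, a zinc-finger repressor known from germinal centre B cells, was at 8.45, 6.15 and 8.47 TPM with the PSENEN siRNA and at 4.84, 9.17 and 7.93 TPM in controls. The groups overlapped and the difference was 0.09 (95% interval -0.52 to 0.70, limma adjusted p = 0.907). Its level was divided over 8 named transcripts, of which ENST00000406870 was the only one above 2 TPM in every library (2.19 to 3.87 TPM with the PSENEN siRNA, 2.09 to 2.92 TPM in controls). Assembled transcripts on the opposite strand of the BCL6 locus, where 2 antisense genes are annotated, were at 3.38, 6.13 and 3.55 TPM against 2.88, 4.03 and 2.78 TPM. ID3, an inhibitor that binds E proteins and is chiefly a target of BMP signalling, was at 250, 238 and 273 TPM against 236, 276 and 328 TPM. The controls spanned the range of the other group, and the difference was -0.13 (95% interval -0.47 to 0.21, limma adjusted p = 0.726). Its coding transcript ENST00000374561 made up 41.8% to 56.3% of its level with the PSENEN siRNA and 43.4% to 58.5% in controls.

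**Figure D3:**
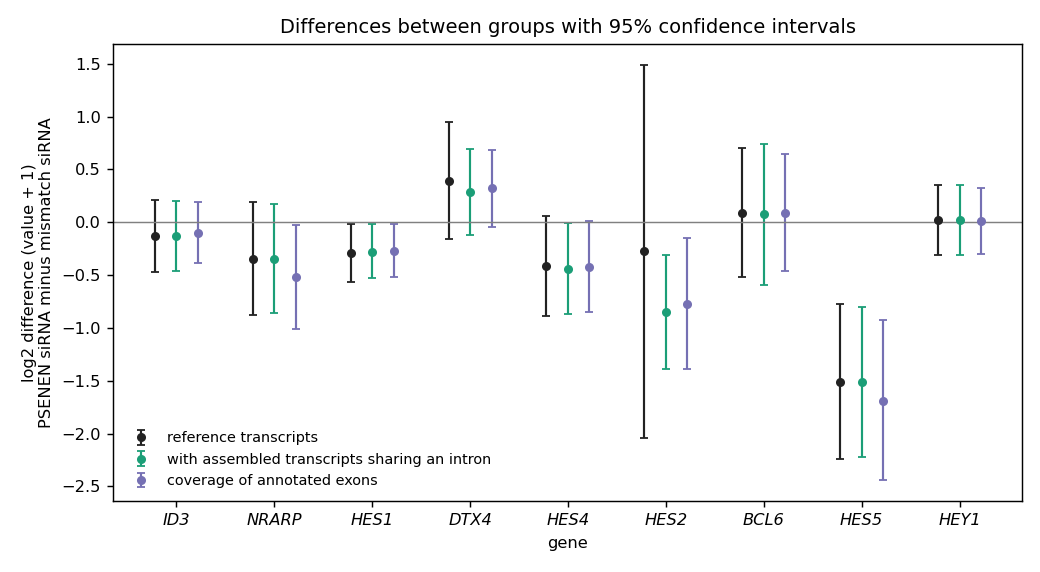
Log2 difference of each gene's value + 1 (vertical axis; PSENEN siRNA minus mismatch siRNA, n = 3 libraries per group) by gene (horizontal axis), with bars for 95% intervals from limma, from named reference transcripts (black), with assembled transcripts that share an intron (green) and from coverage of annotated exons (purple). HES5 lies lowest in all 3 measures (-1.51, -1.51 and -1.69), HES2 moves from -0.27 to -0.85 and -0.77, and the HEY1 points stay near 0.

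The 9 genes differed widely in level. In the mismatch siRNA libraries ID3 was highest at 280 TPM, and its lowest library (236 TPM) lay far above the highest NRARP library (25.7 TPM). NRARP (21.0 TPM) and HES1 (18.5 TPM) followed and overlapped each other. DTX4, HES4, HES2 and BCL6, at 7.31 to 8.78 TPM, overlapped one another, and all but HES2 lay below every HES1 library. The place of HES2 in this order rests on its named transcripts; with assembled transcripts its control mean was 16.8 TPM, and its libraries (12.6, 19.2 and 18.6 TPM) then lay below every HES1 library measured the same way (20.7, 22.1 and 21.9 TPM) and above every HES4 library (7.30, 8.32 and 11.0 TPM). HES5 (5.09 TPM) and HEY1 (4.59 TPM) came last and also overlapped. In the PSENEN siRNA libraries the order of ID3, NRARP, HES1 and DTX4 at the top was the same, but HES5 stood apart at the bottom, with its highest library (1.67 TPM) below the lowest HEY1 library (4.46 TPM).

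The genes wholly lower by exon coverage were HES1, HES2, HES4, HES5 and NRARP, and with shared introns HES1, HES2, HES4 and HES5. The difference of HES5 was -1.69 by exon coverage (adjusted p = 0.0821) and -1.51 with shared introns (adjusted p = 0.101), the lowest adjusted p of any member in either measure. None of the 9 genes was called in either. HES5 was the member with the smallest p. Over the 6 libraries, the genes whose log2 levels were most alike to HES5 among 9287 searched were HIST2H3C, DERL1 and FBXO7 (Pearson r of 0.996, 0.996 and 0.995), and for ID3, the most abundant member, LAMA5, PLEKHF2 and OS9 (0.982, 0.982 and 0.978 among 9286). Both treatments enter these values, so for HES5 they include the gap between the groups. They are the highest of all genes searched over only 6 libraries, so the selection itself favours high values. Shared control was not tested.

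Genes upstream of the targets were read from lists chosen by function. Of 4 Notch receptors, 3 had transcripts and were tested and none was called; NOTCH1, the most abundant, was at 16.9, 18.3 and 21.9 TPM against 17.2, 21.2 and 25.2 TPM (difference -0.14, limma adjusted p = 0.770). All 3 tested ligands of 5 had a negative difference and none was called. JAG1, the main ligand here, was at 36.8, 29.5 and 28.7 TPM against 57.6, 55.5 and 50.7 TPM, without overlap (-0.77, adjusted p = 0.0864), and at 52.6, 40.0 and 37.5 against 70.3, 55.5 and 55.9 TPM with assembled transcripts. DLL1, named after its value was seen, was the other ligand wholly lower (13.7% of all genes were), at 6.26, 6.42 and 6.82 TPM against 8.12, 8.49 and 7.94 TPM (-0.29, adjusted p = 0.391), and it overlapped once assembled transcripts were added. With those added, JAG2 (-0.60, limma adjusted p = 0.236) and NOTCH2 (-0.41, adjusted p = 0.175) were wholly lower, as were 14.5% of all genes. The assembled share of TPM was larger in every control library, as given above. NOTCH1 (-0.36) and NOTCH3 (-0.45, adjusted p = 0.333) overlapped between groups. JAG2, NOTCH2 and NOTCH3 were named after their values were seen. Of 5 tested γ-secretase subunits, PSENEN was called and no other.

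Of 16 tested genes for Notch processing and modification, none was called; 9 had a negative difference and the median was -0.01. Their most abundant named member was the protease gene FURIN, whose product cuts the receptor precursor, at 42.0, 38.8 and 39.9 TPM against 34.9, 34.7 and 27.8 TPM (0.31, limma adjusted p = 0.371). Groups did not overlap for 7 of the 16, with 4 higher and 3 lower, against 8.21% and 13.7% of all genes; apart from FURIN, these were named after their values were seen. The genes wholly higher were FURIN and the genes of 3 enzymes that add sugars to Notch, LFNG (0.85), RFNG (0.34) and POGLUT1 (0.43). The genes wholly lower were those of 3 ubiquitin ligases, ITCH (-0.80), MIB1 (-0.30) and DTX3L (-0.24). LFNG was at 13.8, 16.4 and 14.0 TPM against 9.87, 7.30 and 6.31 TPM (adjusted p = 0.138), but its difference was 0.32 with assembled transcripts and 0.30 by exon coverage, where its groups overlapped. POGLUT1 and ITCH overlapped with assembled transcripts, and POGLUT1 and DTX3L by exon coverage.

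Of 10 tested genes of the RBPJ complex and its co-factors, none was called (median -0.07). RBPJ itself was at 5.39, 6.72 and 8.85 TPM against 6.84, 7.83 and 7.25 TPM, and the controls lay within the wider range of the PSENEN siRNA libraries. HDAC1, a deacetylase of repressor complexes and the most abundant of the list, was at 68.2, 76.7 and 67.3 TPM against 81.9, 95.4 and 94.6 TPM (-0.35, limma adjusted p = 0.268). SNW1 (-0.10) and CIR1 (-0.46) were also wholly lower and the co-activator gene MAML2 (0.47) wholly higher (13.7% and 8.21% of all genes were), the 3 named after their values were seen. By exon coverage HDAC1 and SNW1 overlapped between groups. Neither the 4 tested Groucho family genes (AES 0.07, limma adjusted p = 0.882) nor the 6 ID and E protein genes (ID1 0.04, adjusted p = 0.911) held a called gene. The same was true of the 10 BMP pathway genes (BMP7 -0.17, adjusted p = 0.770) and the 5 BCL6 partners (HDAC3 0.03, adjusted p = 0.953).

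Of 13 tested genes reported elsewhere as Notch targets, 10 had a negative difference (median -0.32), against 54.6% of all genes tested. Of the 13, 6 were wholly lower and GATA3 was wholly higher, against 13.7% and 8.21% of all genes. PLAU, the urokinase gene, was the only one called, at 53.4, 58.7 and 50.6 TPM against 129, 132 and 116 TPM (-1.20, limma adjusted p = 0.0221). Its adjusted p was between 0.0804 and 0.103 when any 1 library was left out. GATA3, a transcription factor gene named after its values were seen, was at 4.49, 4.34 and 4.62 TPM against 1.02, 2.75 and 2.77 TPM (0.84, adjusted p = 0.300).

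**Figure D4:**
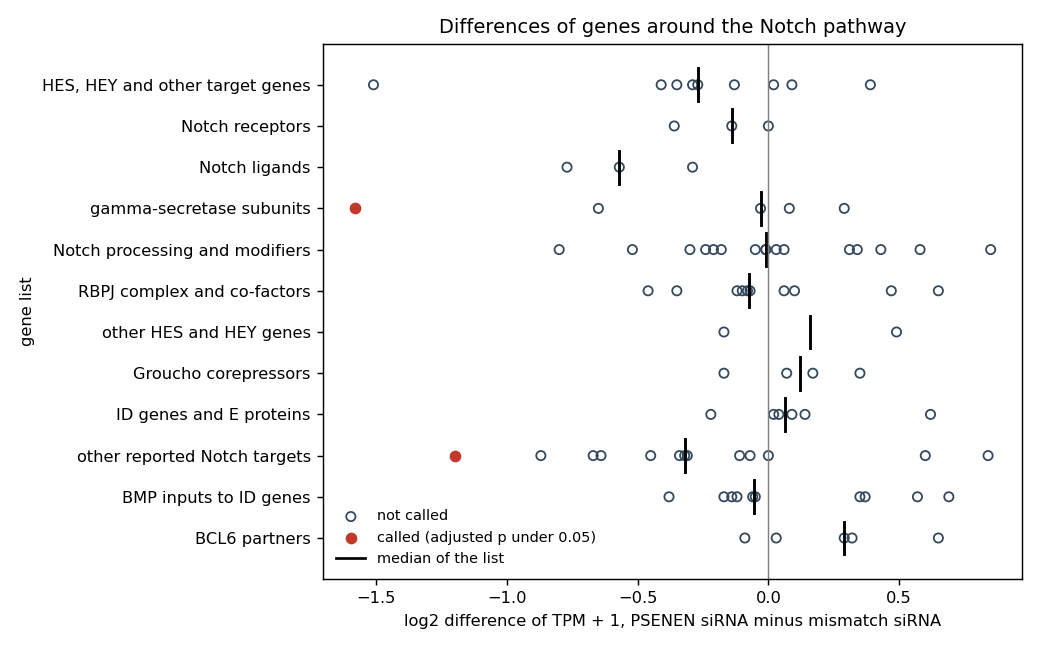
Log2 difference of TPM + 1 (horizontal axis; PSENEN siRNA minus mismatch siRNA) for each tested gene, by gene list (vertical axis), with open circles for genes not called, filled red circles for called genes and a black line at the list median. PSENEN (-1.58) and PLAU (-1.20) are the 2 called genes, and HES5 (-1.51) lies nearest to PSENEN and is not called.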

How the data were processed

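Each deposited file holds the transcripts of 1 library as StringTie assembled them, with the TPM, FPKM and coverage that the authors deposited per transcript, per the file contents. Aligner, StringTie version, options and strandedness are named in none of these sources. The submitters' processing notes list Bowtie 0.12.2 and mouse builds, which do not match these human files. Of 92476 reference transcripts named, 98.2% had their GENCODE 29 position on GRCh38. No counts were given, so no counting intervals were made, and a listed 0 may be a failed estimate.

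Gene levels were sums of TPM over transcripts with the gene's reference name, which took 66.4% to 68.6% of TPM per library. Genes that reached 1 TPM in 3 or more libraries were compared on log2(TPM + 1) with limma 3.58.1 in R 4.3.3 (intensity trend, group as the only term, 4 residual degrees of freedom, two-sided, Benjamini-Hochberg adjustment over all genes tested). The steps were tested on simulated data. Assembled transcripts were added to a gene where they shared an annotated intron with it. Exon coverage summed all same-strand transcripts over annotated exons, scaled to a fixed total. Other settings were pseudocounts, filters, FPKM, scalings, assembled bases, the replicate number as a block, and each library left out. Exact permutation of 3 against 3 libraries cannot give a p under 0.1, so none is printed.

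The genes and the lists were chosen with earlier results of these data known. Named genes were all members, PSENEN, and from each list up to 3 called genes or else the most abundant. Others are marked where named, except RBPJ, the other HES and HEY relatives, KRT14 and the other cell type markers. Python 3.11.15 with pandas 2.3.3 and matplotlib 3.10.9 was used for parsing and figures.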

Additional observations from a re-analysis of the deposited data

How the results depend on the processing

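No member was called under any of the 17 alternatives, and HES1, HES4, HES5, NRARP, DTX4 and ID3 kept their direction in each in which they were tested. With 1 library left out, HES1 ranged from -0.34 to -0.25, HES4 from -0.56 to -0.25, HES5 from -1.74 to -1.28, NRARP from -0.47 to -0.16, DTX4 from 0.22 to 0.55 and ID3 from -0.25 to -0.01. HES5 was -2.13 with a pseudocount of 0.1 and -0.71 with a pseudocount of 5. Named genes that were followed through these alternatives and not called in the report stayed so. JAG2, NOTCH2, NOTCH3, RBPJ, KRT14, the other cell type markers and the HES and HEY relatives other than BHLHE40 were not followed. The number of genes called, 64, was 28 with a pseudocount of 0.1, 109 with assembled bases scaled to a fixed total, 107 by exon coverage, and 7 to 16 when 1 library was left out. The higher share of calls, 31.2%, was 20.9% with a 5 TPM filter, 42.9% with median-of-ratios scaling (21 of 49), 12.5% without PSENEN siRNA replicate 1, and 70.0%, 69.2% and 77.8% without mismatch siRNA replicates 1, 2 and 3. The members whose groups do not overlap, 2, became 1 with a 5 TPM filter, which left HES5 and HEY1 untested, 4 with shared introns, 6 by exon coverage, and 2 to 5 with 1 library left out (5 without mismatch siRNA replicate 1).

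The PSENEN difference lost its call with a pseudocount of 0.1 (-1.98, limma adjusted p = 0.0542), with no filter (-1.58, 0.0725) and with a 5 TPM filter (-1.58, 0.0544), and it ranged from -1.66 to -1.45 with 1 library left out. HES2 turned positive with assembled bases (0.52), without PSENEN siRNA replicate 2 (0.22) and without mismatch siRNA replicate 3 (0.42), and ranged from -0.73 to 0.42 with 1 library left out. HDAC3 was -0.06 with shared introns. With 1 library left out, HEY1 ranged from -0.03 to 0.05, BCL6 from -0.14 to 0.26, BHLHE40 from -0.33 to 0.06, AES from -0.05 to 0.19, ID1 from -0.07 to 0.13, BMP7 from -0.35 to 0.03 and HDAC3 from -0.05 to 0.14. The causes were not tested.

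Replicate numbers pair no libraries by the labels. With the replicate block 1 gene was called, and PSENEN (-1.58) had an adjusted p of 0.306; the deviations of same-numbered libraries correlated at -0.0489, 6.51e-05 and -0.0142, and 0 of the 6 libraries correlated best with its own number.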
